A study of Mus musculus with 9 samples.

Results

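Genes tied to the sorting of olfactory axons were followed through dexamethasone treatment of mice: adhesion and guidance molecules, and S100a5, a marker of neuronal activity. They are Nphs1, Kirrel2, Kirrel3, S100a5, Pcdh10, Nrp1, Nrp2, Sema3f, Robo2 and Epha5, 10 of the 19084 named genes on the array. All 10 were measured, by 17 of 26423 probes, and none was lost to a filter. Each gene stands for its brightest probe, the one with the highest mean over the 9 arrays, and the other probes are given beside it. That mean chose the probes and is no finding. The genes were picked by name with earlier results of these data known, among them the low values of Nphs1 after 2 weeks, so the tests below are no independent evidence for that gene.

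RNA of olfactory mucosa, which lines the nose and contains the olfactory neurons, came from male C57BL/6 mice aged 6 to 8 weeks and was measured on 9 arrays of 1 colour. The WK2 group received dexamethasone, a synthetic glucocorticoid, once a day for 2 weeks. The D1 group received it for 1 day, and the control group (Ctrl) received saline for 2 weeks. The dose of 1 mg/kg, given into the abdomen, is written in the labels beside the 2-week treatment. Each group held 9 mice, of which 3 samples chosen for good expression of Omp, the olfactory marker protein of mature neurons, went on arrays. That choice may have touched any gene that varies with Omp, and its part in the values below was not tested. No label says that the samples of a group are separate animals. The p-values weigh a difference against the spread within groups, pooled over all 9 arrays, and that spread may be technical. D1 and Ctrl also differ in how long injections lasted.

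Each mature olfactory neuron sends its axon to the olfactory bulb, where axons of neurons with the same odorant receptor gather in 1 glomerulus. Guidance receptors such as the neuropilins, Robo2 and Eph receptors read secreted or membrane-bound cues on the way and set the rough position. Adhesion proteins such as Kirrel2 and Kirrel3, whose levels depend on the neuron's receptor and activity, then sort neighbouring axons locally.

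The arrays carried the tissue's defining markers. Omp read 478900 to 540038 in WK2, 331835 to 490368 in D1 and 300267 to 411529 in Ctrl. Cyp2g1, an enzyme of sustentacular and gland cells, read 373325 to 677700 over all arrays and Gap43, of growing neurons, 48872 to 65467. Tbx21, of projection neurons of the olfactory bulb, read 117 to 243, and Eomes, also listed as a bulb marker, 4525 to 6801. The 10 listed bulb markers summed to 41510 to 63816 in WK2, 20197 to 83088 in D1 and 41136 to 81172 in Ctrl. Gad1, the brightest of them, averaged 33217 in WK2, 35372 in D1 and 36475 in Ctrl. Whether the samples held bulb RNA was not tested. Array medians ran from 1202 to 1447, and Pearson's r between arrays of 1 group, across features, from 0.977 to 0.993. The lowest was between WK2 replicates 2 and 3. WK2 replicate 3 correlated least with the Ctrl arrays, at r of 0.9585 to 0.9737, beside 0.9678 to 0.9895 for the other WK2 arrays. It had the lowest Nphs1 level, the lowest summed vomeronasal markers (41741) and the highest summed fibroblast markers (785948). The other WK2 arrays had 66825 and 67930 for vomeronasal and 446293 and 487651 for fibroblast markers. Most of the vomeronasal sum was a single gene, Gnao1, so that sum alone does not give the amount of vomeronasal tissue. In whole tissue, fewer cells of a type and less RNA per cell cannot be told apart.

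The adhesion protein nephrin, encoded by Nphs1, stood out among the 10 genes. It belongs to the immunoglobulin superfamily, is best known from the filtration slit of the kidney, and binds Kirrel proteins across cell contacts. The brightest Nphs1 probe read 2011, 1830 and 1001 in WK2, 5219, 3369 and 4517 in D1, and 4278, 5421 and 4733 in Ctrl. Every WK2 array lay below every D1 and Ctrl array, while D1 and Ctrl overlapped. Nphs1 fell in WK2 to 1614 ± 538, against 4811 ± 575 in Ctrl (SD, n = 3 each). The log2 difference was -1.60 ± 0.26 (SE), which is 3.03-fold lower on that scale. Its 95% interval ran from -2.19 to -1.01, with an adjusted p of 0.0400 (limma, over all features). Differences here are on the scale log2(intensity + 50), which understates the change of dim genes.

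The second, dimmer Nphs1 probe read 369, 478 and 359 in WK2, 1088, 675 and 658 in D1, and 654, 669 and 732 in Ctrl. It showed the same separation of WK2 from the other groups, at a smaller log2 difference from Ctrl of -0.71. In D1 the probes lay on opposite sides of Ctrl, at -0.15 on the brighter and 0.19 on the dimmer probe.

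The Nphs1 call rests on the full set of arrays. It ended without Ctrl replicate 1 (adjusted p = 0.0923, limma), 2 (0.0858) or 3 (0.149), without D1 replicate 1 (0.0639), 2 (0.0641) or 3 (0.0743), and without WK2 replicate 2 (0.0857) or 3 (0.0781). It held without WK2 replicate 1 (0.0334). The difference itself ran from -1.78 to -1.30 over these 9 fits, with -1.30 in the fit without WK2 replicate 3.

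Nphs1 and Kirrel2 are neighbouring protein-coding genes on mouse chromosome 7 in the RefSeq annotation of GRCm38.p6. They lie on opposite strands and point away from each other, with starts 2543 bases apart. The 250 bases before each start are shown, since both windows lie between a gene that fell and a gene that did not pass the test. RefSeq's promoter table for GRCm38.p6 gave them, and each reads 5′ to 3′ in its gene's direction. Nphs1 is taken from chr7:30459808-30460057 on the plus strand and Kirrel2 from chr7:30457516-30457765 on the minus strand.
Nphs1: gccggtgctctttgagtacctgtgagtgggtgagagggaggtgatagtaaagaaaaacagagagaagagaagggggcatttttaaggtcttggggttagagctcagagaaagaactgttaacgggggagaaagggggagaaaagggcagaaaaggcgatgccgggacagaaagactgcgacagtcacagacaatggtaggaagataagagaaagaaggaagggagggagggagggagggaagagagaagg
Kirrel2: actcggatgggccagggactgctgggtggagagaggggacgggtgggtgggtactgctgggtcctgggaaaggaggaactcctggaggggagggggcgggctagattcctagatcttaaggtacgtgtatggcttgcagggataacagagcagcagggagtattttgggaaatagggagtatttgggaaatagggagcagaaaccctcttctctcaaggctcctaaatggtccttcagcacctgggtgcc
Capitals would mark a motif, and neither window held one of the 5 searched on both strands. These were the core of the glucocorticoid response element (TGTTCT), the cyclic AMP response element (TGACGTCA) and its core (TGACG), the E-box (CACGTG) and the EBF site (CCCNNGGG). Every full cyclic AMP element also counts as a core match. Of 32851 windows of this length in the table, 16.1%, 1.5%, 17.8%, 6.0% and 11.8% held them, in that order. The table matched 8 of the 10 genes, all but Kirrel3 and Sema3f. Among them Pcdh10 had a TGTTCT at 191 bases and a TGACG at 116 and at 103 bases before its start. One of 3 Robo2 windows had a CACGTG and another a CCCNNGGG. A match in such a window is a description of its letters, and no match concerns only these letters.

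Kirrel2 and Kirrel3 encode adhesion proteins that bind themselves, and in mice neurons rich in one tend to be poor in the other. Kirrel3 read 9077, 10403 and 8996 in WK2, 13102, 15347 and 11344 in D1, and 13903, 14375 and 15691 in Ctrl. The WK2 arrays lay below all others, and D1 overlapped Ctrl. Its mean was 9492 ± 790 in WK2 and 14656 ± 927 in Ctrl (SD, n = 3 each), a log2 difference of -0.63 with a 95% interval from -0.97 to -0.28. It did not pass at an adjusted p of 0.0596 (limma), and it did with median centring (0.0326), a pseudocount of 500 (0.0444) and array weights (0.0258). Without WK2 replicate 3 it was at -0.59 (adjusted p = 0.104, limma).

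Kirrel2, the neighbour of Nphs1, read 24988, 39041 and 21620 in WK2, 39332, 30452 and 32127 in D1, and 33391, 31318 and 39004 in Ctrl. In WK2, replicates 1 and 3 were below every other array and replicate 2 was among the highest, so the groups overlapped. The WK2 mean was 28550 ± 9241, against 34571 ± 3977 in Ctrl (SD, n = 3 each). The log2 difference of -0.32 (95% interval -0.81 to 0.18) did not pass, with an adjusted p of 0.340 (limma), and it was -0.57 without WK2 replicate 2 and -0.14 without WK2 replicate 3.

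S100a5 encodes a calcium-binding protein of the S100 family that mature olfactory neurons make in step with their activity. It read 377657, 623045 and 464346 in WK2, 355948, 351340 and 563978 in D1, and 359779, 442592 and 325480 in Ctrl. The groups overlapped, with WK2 replicate 2 and D1 replicate 3 the highest. The log2 difference between WK2 and Ctrl was 0.36 (95% interval -0.18 to 0.90, adjusted p = 0.324, limma) and turned to -0.29 under quantile normalization. The S100a5 probe is the highest of all on Ctrl replicate 2 and stood 8th to 30th on the other 8 arrays. The table gives no saturation flags. On no array did more than 1 probe come within 0.1% of the array's highest value.

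Pcdh10 encodes a protocadherin, a homophilic adhesion protein that olfactory neurons express in subsets. Its brightest probe read 1904, 3755 and 1538 in WK2, 2124, 1700 and 1665 in D1, and 2110, 1757 and 2070 in Ctrl. WK2 replicate 2 lay far above all others and replicate 3 below all others. The next 2 probes, at 1850, 2713 and 1187 and at 1072, 1613 and 875 in WK2, had the same order of the 3 arrays. On all 5 probes the log2 difference between WK2 and Ctrl lay from -0.07 to 0.21. On the brightest probe it was 0.17 with an interval from -0.46 to 0.80, and -0.20 without WK2 replicate 2.

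**Figure D1:**
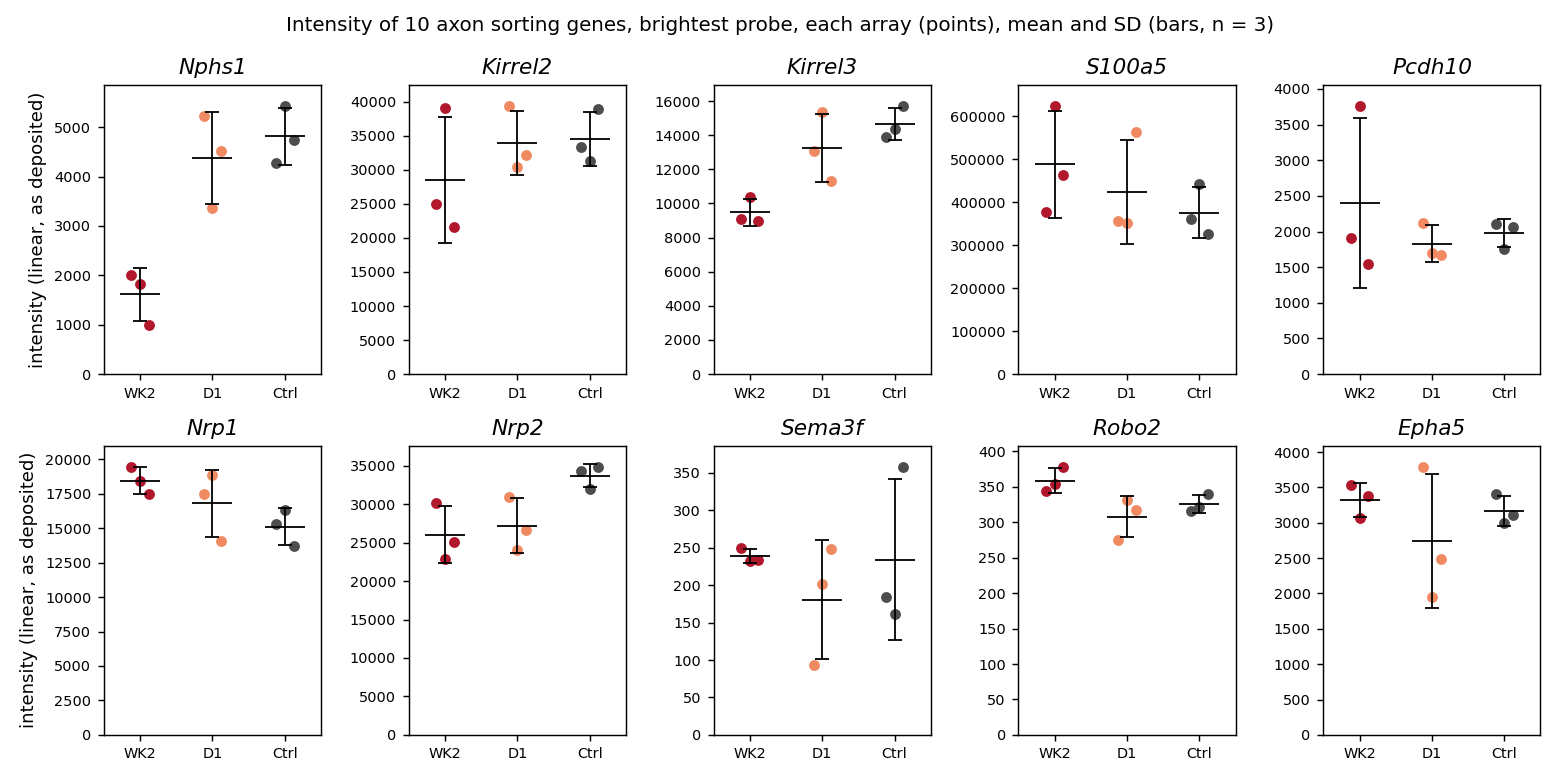
Intensity of each of the 10 genes on its brightest probe, as deposited on a linear scale from 0, in WK2, D1 and Ctrl. Points are arrays, and bars give the mean and SD of 3. WK2 arrays of Nphs1 (1001 to 2011) and Kirrel3 (8996 to 10403) lie below every D1 and Ctrl array, while Kirrel2, S100a5 and Pcdh10 each have WK2 replicate 2 as the highest of their group.

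Nrp1 and Nrp2 encode neuropilins, receptors of secreted class 3 semaphorins that signal through plexins, and endothelial cells also make Nrp1. Nrp2 read 30196, 22898 and 25041 in WK2, 30996, 23988 and 26716 in D1, and 34355, 32033 and 34833 in Ctrl. All 6 arrays of treated mice lay below the 3 Ctrl arrays. The log2 difference was -0.38 (95% interval -0.73 to -0.03, adjusted p = 0.145, limma) in WK2 and -0.32 (-0.67 to 0.04, adjusted p = 1.00) in D1, both against the same Ctrl arrays, and neither passed. On the dimmer Nrp2 probe the values were -0.40 and -0.23, with overlapping groups.

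Nrp1 read 19433, 18413 and 17503 in WK2, 17480, 18836 and 14067 in D1, and 15285, 16342 and 13688 in Ctrl. WK2 lay above Ctrl without overlap and D1 overlapped both. The log2 difference between WK2 and Ctrl was 0.29 (95% interval -0.05 to 0.63, adjusted p = 0.225, limma) and did not pass. The dimmer Nrp1 probe gave 0.14 in WK2 and -0.29 in D1, where the brighter gave 0.15 in D1. Of 10 measured endothelial markers 8 lay below Ctrl in WK2, beside 37.3% of all features. The summed intensity of the 10 was 26383 to 28327 in WK2, 28738 to 35675 in D1 and 28005 to 33269 in Ctrl. Their mean log2 level in WK2 (11.120 to 11.183) lay below D1 (11.361 to 11.589) and Ctrl (11.310 to 11.553) without overlap. The part of endothelial cells in the Nrp1 values was not tested.

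Sema3f encodes a secreted repellent that acts through Nrp2. It read 250, 233 and 234 in WK2, 93.1, 201 and 248 in D1, and 184, 161 and 358 in Ctrl. The WK2 arrays were close to each other and within the range of Ctrl. The log2 difference of 0.09 had an interval from -0.58 to 0.76 and turned to -0.17 under quantile normalization. The table gives no detection calls, so whether so dim a probe is above background is not known.

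Robo2, a receptor of the repellent Slit proteins, was as dim, at 344, 355 and 378 in WK2, 275, 331 and 317 in D1, and 316, 322 and 339 in Ctrl. WK2 lay just above the other groups without overlap, by 0.12 on the log2 scale against Ctrl (95% interval -0.17 to 0.41, adjusted p = 0.530, limma) and by -0.12 under quantile normalization. Epha5 encodes a receptor tyrosine kinase that binds ephrin-A proteins. It read 3540, 3064 and 3378 in WK2, 3788, 1946 and 2485 in D1, and 3406, 2993 and 3111 in Ctrl. Its WK2 and Ctrl arrays overlapped, and the log2 difference of 0.07 (95% interval -0.42 to 0.55) turned to -0.03 under median centring.

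**Figure D2:**
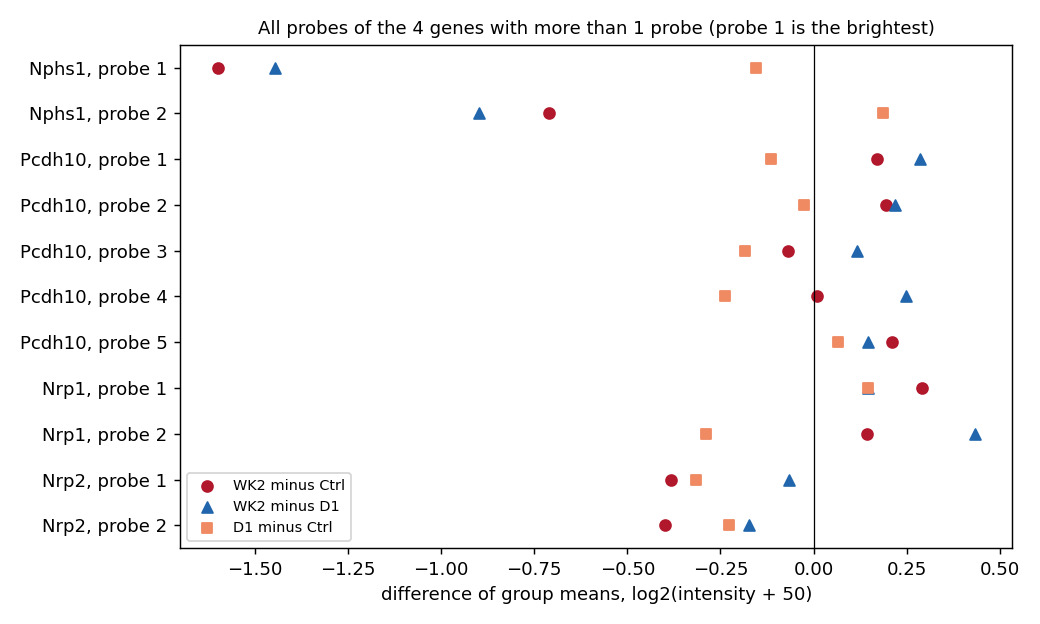
Differences of group means on the log2(intensity + 50) scale for each probe of Nphs1, Pcdh10, Nrp1 and Nrp2, the genes with more than 1 probe, from the brightest (probe 1) down. Circles give WK2 minus Ctrl, triangles WK2 minus D1 and squares D1 minus Ctrl. Both Nphs1 probes lie left of 0 for WK2, at -1.60 and -0.71 against Ctrl.

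In all, 1 of the 10 genes passed the test in WK2 against Ctrl, Nphs1, where 1.61% of 23631 features did (limma, adjusted p under 0.05). In the lower direction alone the background was 1.18%, and in the higher direction 0.432%. The groups did not overlap in 5 of the 10, against 37.6% of all features, with Nphs1, Kirrel3 and Nrp2 lower (13.8% of features) and Nrp1 and Robo2 higher (23.8%). At an unadjusted p under 0.05 there were 3 of 10, beside 29.7% of features. These shares are read against a background in which much of the array shifted. The median of the 10 differences was 0.08, and the median over all features was 0.14. Against that shift, Sema3f, Robo2, Epha5 and Pcdh10 lie near the middle of the array, and Nphs1 differed by -1.70 with median centring.

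**Figure D3:**
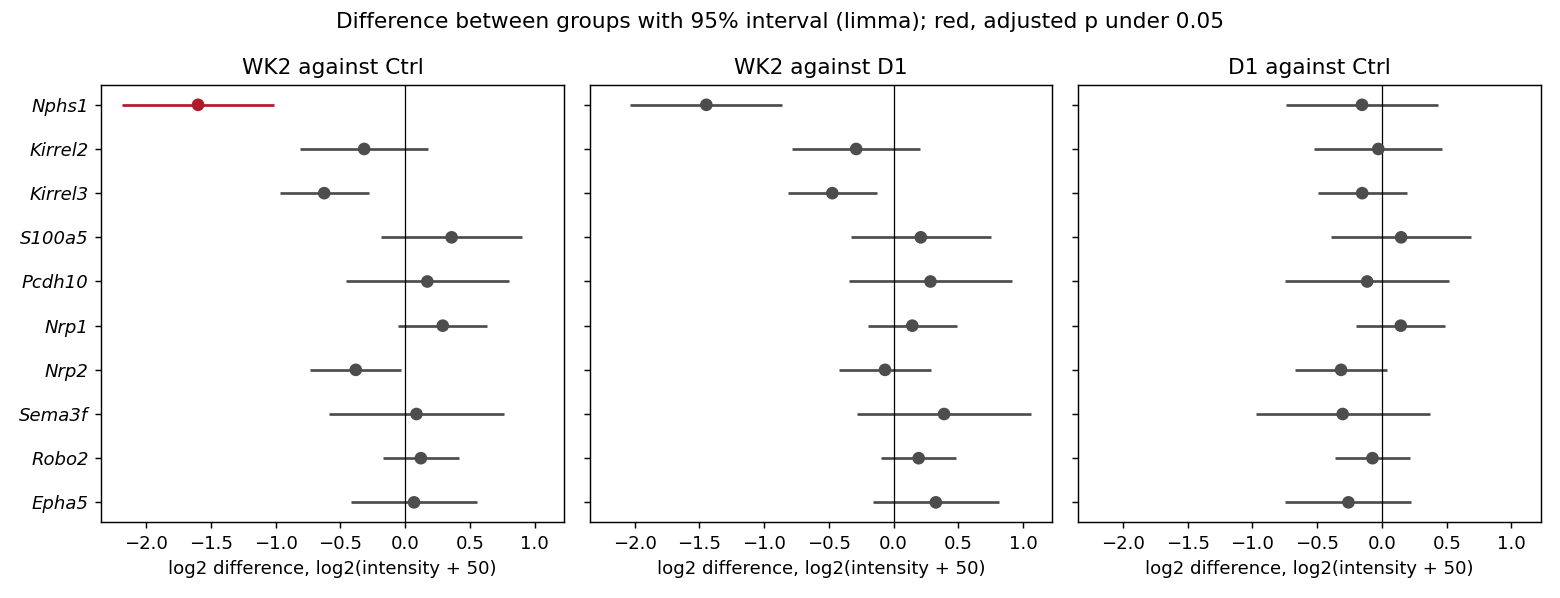
Log2 differences of the 10 genes with 95% intervals (limma, n = 3 per group), for WK2 against Ctrl, WK2 against D1 and D1 against Ctrl. Red marks an adjusted p under 0.05, reached by Nphs1 in WK2 against Ctrl at -1.60.

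Set against D1 in place of Ctrl, the WK2 arrays showed the same 2 adhesion genes as the lowest. Nphs1 averaged 1614 ± 538 in WK2 and 4368 ± 934 in D1 (SD, n = 3 each), a log2 difference of -1.45 with an interval from -2.03 to -0.86 and an adjusted p of 0.0981 (limma). Kirrel3 averaged 9492 ± 790 in WK2 and 13264 ± 2006 in D1, a log2 difference of -0.47 with an interval from -0.82 to -0.13 and an adjusted p of 0.179 (limma). None of the 10 passed, where 0.0931% of features did (0.0296% higher and 0.0635% lower), and 2 of 10 had an unadjusted p under 0.05, beside 19.2% of features. With array weights 1 of 10 passed, Nphs1 at 0.0293. The groups did not overlap for Nphs1, Kirrel3 and Robo2, 3 of 10 beside 31.4% of features. By direction, 1 was higher (18.7% of features) and 2 were lower (12.6%). This comparison shares the WK2 arrays with the one above, so it is no separate support.

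After 1 day none of the 10 genes passed against Ctrl, and 0% of all features did (limma). At an unadjusted p under 0.05 there were 0 of 10, beside 2% of features, and trend and robust moderation and array weights also called 0 of the 10. The differences ran from -0.32 for Nrp2 to 0.15 for S100a5, which turned to -0.16 under quantile normalization. The groups did not overlap for Nrp2 alone, 1 of 10 beside 10.1% of features (5.19% lower and 4.92% higher). For Nphs1 the interval in D1 ran from -0.74 to 0.43, and for Kirrel3 from -0.49 to 0.19.

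RNA of mature neuron markers was read beside these genes, with the limit that the samples were chosen for Omp, 1 of the 14 markers. All 14 were measured and they were mixed in WK2, with 9 above and 5 below Ctrl, differences from -0.58 for Adcy3 to 0.60 for Omp, and none past the test (limma). Their mean log2 level in WK2 was 0.05 above Ctrl and 0.14 above D1. Their summed intensity, in which bright genes such as Omp weigh most, was 1969790 to 2137430 in WK2, 1531550 to 1935720 in D1 and 1678380 to 1862100 in Ctrl. Their mean log2 level overlapped between groups, at 16.706 to 16.830 in WK2, 16.407 to 16.739 in D1 and 16.606 to 16.778 in Ctrl. Relative to that mean, chosen after the data were seen, Nphs1 differed by -1.65 in WK2 against Ctrl (95% interval -2.18 to -1.13, adjusted p = 0.0236, limma) and by -1.58 against D1 (adjusted p = 0.0309). Kirrel3 differed by -0.68 relative to the markers (adjusted p = 0.117), Kirrel2 by -0.37 and S100a5 by 0.31. The marker mean itself differed by only 0.05 between WK2 and Ctrl, so subtracting it could hardly move the Nphs1 difference. These values are therefore no separate support, and they do not tell which cells lie behind that difference. What the choice of samples by Omp does to the Nphs1 difference was not tested. Which cells of the mucosa carry Nphs1 RNA was not measured.

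**Figure D4:**
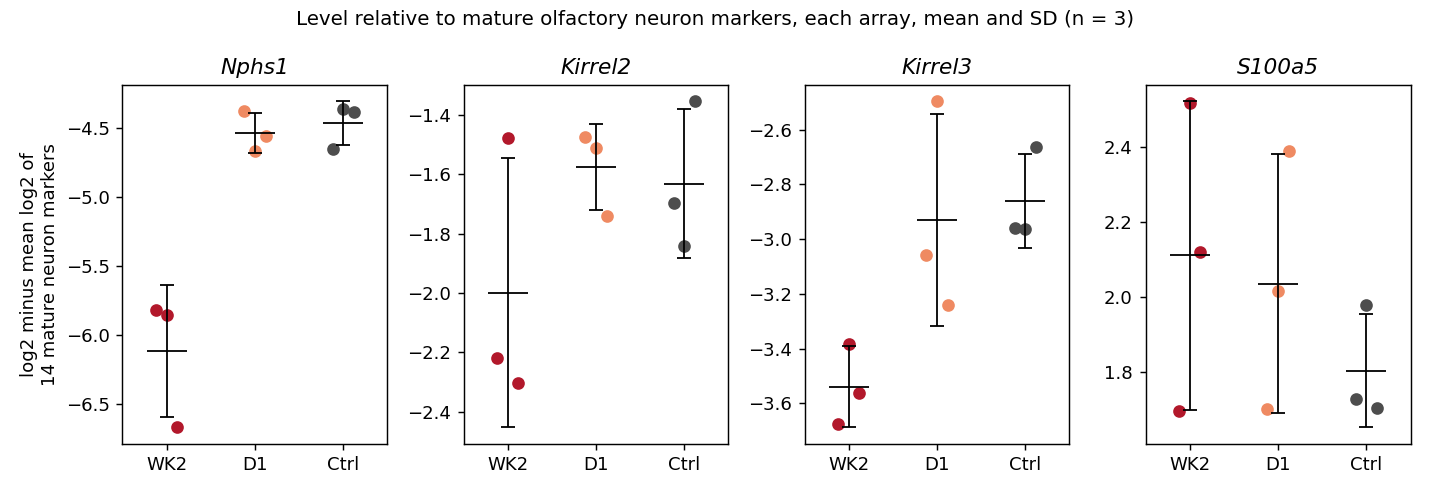
Log2 level of Nphs1, Kirrel2, Kirrel3 and S100a5 minus the mean log2 level of 14 mature neuron markers on the same array, in WK2, D1 and Ctrl (points, arrays; bars, mean and SD of 3). The WK2 points of Nphs1 lie below all D1 and Ctrl points, a difference of -1.65 against Ctrl.

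Single markers of other cells fell in WK2, while their lists held genes on both sides of Ctrl. Of all features 37.3% lay below Ctrl in WK2. Trpc2, the channel of vomeronasal neurons, which in mice also use Kirrel3, Nrp2 and Robo2, fell to 417 ± 170 in WK2, against 1004 ± 54.7 in Ctrl (SD, n = 3 each, log2 -1.24, adjusted p = 0.0495, limma). That call also ended with a pseudocount of 16 (0.0576) and with trend and robust moderation (0.0519), and the difference was -0.73 with a pseudocount of 500. Of 5 vomeronasal markers measured 1 passed, 3 lay below and 2 above Ctrl. Their summed intensity was 41741 to 67930 in WK2, 73487 to 94786 in D1 and 87506 to 105022 in Ctrl, with none at 0. Most of that sum was Gnao1, which averaged 50789 in WK2, 76101 in D1 and 81746 in Ctrl. The mean log2 level of the 5 in WK2 (10.761 to 11.384) overlapped D1 (11.296 to 11.580) and lay just below Ctrl (11.406 to 11.620). Dpysl5, of immature neurons, fell by 1.26 on the log2 scale (adjusted p = 0.0400) and Kit, a receptor tyrosine kinase listed with progenitor markers, by 1.11 (adjusted p = 0.0396). The 6 measured progenitor markers were split, 3 above and 3 below Ctrl, with Kit alone past the test. Of 11 immature neuron markers 1 passed, 9 lay below and 2 above Ctrl. Their sums overlapped, at 307881 to 370054 in WK2, 320496 to 389293 in D1 and 345129 to 384905 in Ctrl. Their mean log2 level did not, with WK2 (14.358 to 14.558) below D1 (14.577 to 14.849) and Ctrl (14.730 to 14.791). When single arrays were dropped, Trpc2, Dpysl5 and Kit stayed called only in the fit that dropped WK2 replicate 1, and adjusted p elsewhere reached 0.149 (limma). The part of these cells in the Nphs1 and Kirrel3 values was not tested.

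Other molecules of the same systems were read from 6 lists of guidance, adhesion and odorant signalling genes, 123 of whose 126 genes were measured. In WK2 against Ctrl 4 fell and 0 rose, 3.25% beside the background of 1.61% (limma), and 79 of the 123 lay below Ctrl, beside 37.3% of all features. The lists were chosen with earlier results known.

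Kirrel and Nfasc fell among 22 immunoglobulin adhesion genes. Kirrel encodes the Kirrel family member that is nephrin's partner in the kidney, and it averaged 11395 ± 2797 in WK2, 19635 ± 1214 in D1 and 25783 ± 2070 in Ctrl (SD, n = 3 each). Its log2 difference between WK2 and Ctrl was -1.20 (adjusted p = 0.0357, limma). Nfasc, neurofascin, an axonal adhesion protein, averaged 1253 ± 183 in WK2 and 3594 ± 549 in Ctrl, a difference of -1.48 (adjusted p = 0.0396), and its dimmer probe gave -0.39. Chl1, of the L1 family, lay at 1.18 and Ncam1, the neural cell adhesion molecule, at -0.75 without passing. The list's median was -0.04, with 10 above and 12 below Ctrl.

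Among 28 semaphorins and plexins 1 fell. Plxna1, a plexin that passes on semaphorin signals from neuropilins, averaged 8131 ± 2941 in WK2, 15745 ± 2570 in D1 and 22471 ± 1502 in Ctrl (SD, n = 3 each), a log2 difference between WK2 and Ctrl of -1.53 (adjusted p = 0.0400, limma). Its dimmer probe gave -0.42, and with the mean of the probes the call ended (0.0541). Sema4f lay at -1.02, Sema3b at -0.81 and Plxnb2 at -0.89 without passing. The list's median was -0.21, with 8 above and 20 below Ctrl.

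Among 24 protocadherins, cadherins, teneurins and Celsr genes 1 fell. Celsr3, an atypical cadherin needed for axon tracts in the brain, averaged 5259 ± 1087 in WK2 and 11452 ± 1817 in Ctrl (SD, n = 3 each), a log2 difference of -1.12 (adjusted p = 0.0424, limma). It did not pass with a pseudocount of 16 (0.0506). Tenm4 lay at -0.94, Pcdh1 at -0.87 and Cdh11, a cadherin of mesenchymal cells, at 0.55 without passing. The median was -0.23, with 7 above and 17 below Ctrl.

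No gene passed among 16 of the Slit, Robo and netrin list (median -0.06, with 7 above and 9 below Ctrl) or 20 ephrins and Eph receptors (median -0.23, with 7 above and 13 below Ctrl). The netrin receptor gene Unc5c lay at 0.82 and Unc5b at -0.79, and the Slit-Robo effectors Srgap2 at 0.89 and Srgap1 at -0.74. Ephb4 lay at -0.62, Efna3 at -0.72, Efnb3 at -0.55 and Efna2 at -0.51. None of the 123 genes passed in D1 against Ctrl or WK2 against D1. When single arrays were dropped, Kirrel, Plxna1 and Celsr3 stayed called only in the fit that dropped WK2 replicate 1, and Nfasc only there and in the fit that dropped D1 replicate 2. In the other fits their adjusted p lay from 0.0629 to 0.149 (limma).

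**Figure D5:**
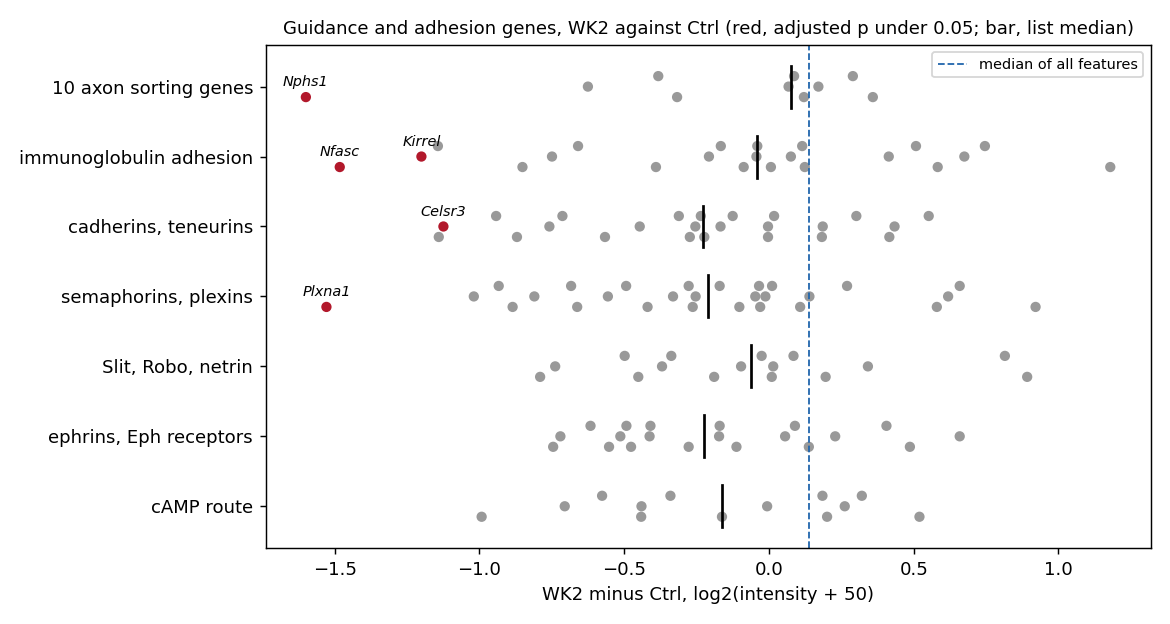
Log2 difference between WK2 and Ctrl of the 10 axon sorting genes and of 6 lists of other genes, 1 point per gene, with the list median as a bar and the median of all features (0.14) as a dashed line. Red marks an adjusted p under 0.05. Nphs1, Nfasc, Kirrel, Celsr3 and Plxna1 lie from -1.60 to -1.12.

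For Nphs1, Kirrel2, Kirrel3 and S100a5, the named genes of most similar pattern were read by Pearson's r of log2 values over 9 arrays. Unnamed probes were left out. The arrays share the 3 groups, so this is a description. For Nphs1 they were Flot2 (r = 0.998), Usp48 (0.989) and Gas6 (0.988). Flot2, a membrane scaffold protein gene, averaged 17273 in WK2, 30963 in D1 and 32372 in Ctrl. For Kirrel3 they were Maml3 (0.963), Myadm (0.962) and Col4a2 (0.959), and for Kirrel2 Mpp2 (0.941), Apba1 (0.939) and Paxbp1 (0.939). For S100a5 they were G0s2 (0.940), Ifi27l2a (0.917) and Paip2b (0.913). G0s2 averaged 12229 in WK2, 9309 in D1 and 7964 in Ctrl.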

How the data were processed

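The authors deposited 1 table of intensity values on a linear scale, 26423 probes by 9 arrays. Per the labels' protocols, total RNA was amplified and labelled with Cy5. Not given in the sources used here are the scanner, the background correction and the scaling. On each array 8 to 18 probes lie below 0, and the table holds no detection or saturation flags, batches or dates. Array medians differed by 0.27 on the log2 scale, under the limit of 0.5 set for using the values as deposited.

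Gene symbols came from GEO's platform annotation, which gave 1 symbol for 21876 probes, several for 0 and none for 4547. For 21825 probes the gene ID was found in RefSeq's table (GRCm38.p6) and the symbol brought up to date. The brightest probe of each gene and each unnamed probe gave 23631 features. Values below 0 were set to 0 and tested as log2(intensity + 50) in 1 limma 3.58.1 fit over all 9 arrays (R 4.3.3, lmFit, contrasts.fit, eBayes), with Benjamini-Hochberg adjustment within each comparison. An exact permutation test of 3 against 3 arrays cannot give a p under 0.1, and the number of arrays limits the precision.

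Members and lists were chosen with earlier results of these data known. Named were the 10 genes, list genes past an adjusted p of 0.05, up to 4 of the smallest p from each list, and defining markers. The main fit was planned without pairs, with replicate number as a block among the alternatives. Same-numbered arrays correlated at -0.28 to 0.14 in their deviations from group means (9 pairs), which cannot show whether they are paired.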

Additional observations from a re-analysis of the deposited data

How the results depend on the processing

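Each of the 30 differences of the 10 genes was refitted under up to 21 alternatives, 627 values in all, of which 599 kept their direction. The count of the 10 genes called in WK2 against Ctrl (1) was 0 in the fit of only the 2 groups compared and without Ctrl 2 and WK2 3 together, an alternative chosen after seeing the data. It was 2 with median centring, a pseudocount of 500 or array weights, and 0 to 1 with 1 array left out. In WK2 against D1 it was 1 in place of 0 with array weights and relative to mature neuron markers. With the replicate block the count in WK2 against Ctrl was 0 and that of the other guidance, adhesion and signalling genes 0, in place of 1 and 4, and all features called were 1 in place of 380. In the check of deviations same-numbered arrays (r of -0.28 to 0.14) were no more alike than other pairs (-0.34 to 0.31). With 9 such pairs, that check cannot show that they share only a number. The count of other genes (4) was 16 with quantile normalization, 14 with median centring, 8 with a pseudocount of 500, 8 without the dimmest 25% of features and 23 with array weights. It was 0 in the fit of 2 groups and without Ctrl 2 and WK2 3 together, and 0 to 9 with 1 array left out. All features called in WK2 against Ctrl numbered 0 to 2728 over these alternatives, so a call near the threshold moves with the whole array. In every fit Nphs1 (-1.78 to -1.16), Kirrel3 (-0.73 to -0.58), Kirrel2 (-0.57 to -0.14), Nrp2 (-0.49 to -0.29) and Nrp1 (0.19 to 0.39) kept their side in WK2 against Ctrl.

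Directions that turned belonged to differences that did not pass. Under quantile normalization in WK2 against Ctrl, S100a5 was at -0.29, Sema3f at -0.17 and Robo2 at -0.12. Sema3f was also at -0.014 with median centring, -0.10 with array weights and -0.084 without Ctrl 2 and WK2 3 together, and Epha5 at -0.033 with median centring. In D1 against Ctrl, quantile normalization put Kirrel2 at 0.003 and S100a5 at -0.16. The mean of a gene's probes put Nphs1 at 0.017 and Nrp1 at -0.072 there, and values relative to mature neuron markers put Kirrel2 at 0.055 and Robo2 at 0.01. In WK2 against D1, S100a5 was at -0.13 under quantile normalization and -0.038 with array weights, and Nrp2 at 0.032 with array weights. With 1 array left out, the ranges that crossed 0 in WK2 against Ctrl were -0.20 to 0.43 for Pcdh10 and -0.10 to 0.38 for Sema3f. In D1 against Ctrl they were -0.29 to 0.02 for Nphs1, -0.138 to 0.062 for Kirrel2, -0.076 to 0.272 for S100a5 and -0.521 to 0.009 for Sema3f. In WK2 against D1 they were -0.085 to 0.545 for Pcdh10 and -0.177 to 0.031 for Nrp2. The cause was not tested in any of these. With 3 arrays a group the intervals are wide, and that of Sema3f in WK2 against Ctrl ran from -0.58 to 0.76.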

Other observations

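Genes of the cyclic AMP route, by which odorant receptors set the levels of axon sorting genes in mouse olfactory neurons, were mixed in WK2. Of 13 measured 0 passed against Ctrl, 5 lay above and 8 below, and the median was -0.16. Gnas, a stimulatory G protein subunit, averaged 3091 ± 832 in WK2, 6468 ± 748 in D1 and 6107 ± 1173 in Ctrl (SD, n = 3 each), a log2 difference between WK2 and Ctrl of -0.99 (adjusted p = 0.0553, limma). Adcy3, the olfactory adenylyl cyclase, lay at -0.58 and Pde4a, which breaks down cyclic AMP, at -0.71, while Gng13, a G protein gamma subunit, lay at 0.52. In D1 the list's median was -0.04.

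Markers of some other cell types lay above Ctrl in WK2 without passing the test. Of all 23631 features 14820 also lay above Ctrl. The counts of basal and fibroblast markers are close to that share and are no result about these cells. All 5 measured sustentacular markers lay above Ctrl, with summed intensity of 1473370 to 1636300 in WK2, 1248790 to 1472500 in D1 and 1010840 to 1268210 in Ctrl. Of 4 markers of horizontal basal cells, the resting stem cells, 3 lay above and 1 below Ctrl, with sums of 41140 to 44326 in WK2, 26313 to 33571 in D1 and 27758 to 31883 in Ctrl. Of 6 fibroblast markers 4 lay above and 2 below Ctrl. Their sums were 446293 to 785948 in WK2, 301734 to 318468 in D1 and 373651 to 395551 in Ctrl, and the highest was WK2 replicate 3. Their mean log2 level in WK2 (14.278 to 14.908) overlapped Ctrl (14.131 to 14.504) and lay above D1 (14.001 to 14.027). None of these markers passed the test (limma), and their part in the axon sorting genes was not tested.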
